A study of Mus musculus with 12 samples.

Results

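Cardiac sarcomere genes were followed in RNA sequencing libraries of mouse aorta, starting from Tnnt2, which encodes the heart's troponin T. The set was Tnnt2 with 9 further genes of heart muscle, Myh6, Actc1, Tnni3, Myl7, Myl4, Myl2, Myl3, Ryr2 and Nppa, wherever one was listed by symbol. Of these 10 genes, 3 were measured among the 3534 genes listed, namely Tnnt2, Tnni3 and Myl4, and the other 7 were not analysed here. All 3 passed the filter on low values.

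The 12 samples formed 4 groups of 3. HSAPN samples carried a knockdown of APPL1 and came from high-fat feeding. HAPN and HFD samples both had the WT genotype and high-fat feeding, and the sources used here do not say how HAPN differed from HFD. WT samples had the WT genotype and a normal diet. Feeding lasted 12 weeks, and fat supplied 60% of the energy in the high-fat diet. The sources used here do not give strain, age, sex or the way the knockdown was made. Appl1 itself was not analysed here. HFD replicates 1 and 2 had files that held the same values and were counted as 1 library, called the shared HFD library below, which left 11 libraries: 3 HSAPN, 3 HAPN, 2 HFD and 3 WT. The labels do not say that replicates came from separate animals, so p-values measure the spread between these samples only.

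Striated muscle contracts when calcium binds the troponin complex on the thin filament, which frees actin for the heads of myosin. Troponin T, from Tnnt2, ties the complex to tropomyosin. Troponin I, from Tnni3 in the adult heart, holds contraction off at low calcium. Myl4 encodes the essential myosin light chain of atrial muscle. Smooth muscle of the aortic wall is regulated mainly through phosphorylation of myosin and uses no troponin. In rodents, sleeves of heart muscle run along the large thoracic veins, and the root of the aorta joins the heart.

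The upstream regions of the 3 genes are shown first, as RefSeq gives them on GRCm38.p6. Each run covers 250 bases before and 50 after an annotated start, read 5′ to 3′ on the gene's strand. Capitals mark matches to the motifs searched on both strands. These were CATTCC, the core of the muscle MCAT element, which TEAD factors bind, and AGATAA, which GATA factors bind. The others were the E box CANNTG, bound by helix-loop-helix factors, the TATA box in the form TATAAA, the NKX2-5 site in the form TNAAGTG, and the MEF2 site and CArG box.
Tnnt2, chr1:135836084-135836383, plus strand: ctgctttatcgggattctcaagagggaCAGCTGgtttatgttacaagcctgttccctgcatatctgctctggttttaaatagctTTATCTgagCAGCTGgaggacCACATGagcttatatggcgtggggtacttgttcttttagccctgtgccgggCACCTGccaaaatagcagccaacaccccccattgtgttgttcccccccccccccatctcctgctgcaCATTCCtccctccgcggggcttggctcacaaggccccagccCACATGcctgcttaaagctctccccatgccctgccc
Tnni3, chr7:4522479-4522778, minus strand: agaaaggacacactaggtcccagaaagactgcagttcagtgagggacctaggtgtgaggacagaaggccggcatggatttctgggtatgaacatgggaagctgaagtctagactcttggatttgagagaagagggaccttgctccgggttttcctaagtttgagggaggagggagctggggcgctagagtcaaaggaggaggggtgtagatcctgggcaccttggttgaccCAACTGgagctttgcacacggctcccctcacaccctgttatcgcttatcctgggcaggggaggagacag
Myl4, chr11:104550413-104550712, plus strand: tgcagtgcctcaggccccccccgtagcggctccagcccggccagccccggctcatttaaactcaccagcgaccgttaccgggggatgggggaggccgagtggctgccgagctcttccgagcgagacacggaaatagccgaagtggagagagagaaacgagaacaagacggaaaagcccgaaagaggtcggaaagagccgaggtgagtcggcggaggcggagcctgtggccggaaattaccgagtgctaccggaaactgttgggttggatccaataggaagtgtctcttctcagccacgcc
The Tnnt2 window held CATTCC from 27 to 22 bases before the start and AGATAA, read as ttatct, from 166 to 161 bases before it, with 5 E boxes. The Tnni3 window held 1 E box, and the Myl4 window none of the motifs. Across 32851 mouse promoters of the same length, 14.7% held CATTCC, 11.2% AGATAA, 72.3% an E box, 13.6% TATAAA, 11.5% TNAAGTG, 3.19% a MEF2 site and 1.63% a CArG box. A match is a description of letters, and no match says only that these letters are not in this window. RefSeq also listed a further Tnnt2 start, whose window (chr1:135836739-135837038) held 2 E boxes and none of the other motifs.

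Whole reads could be recovered from the deposited FPKM values (reads per kilobase of transcript, scaled to the size of the library) with the exonic lengths of GENCODE M21, which gave 15610000 to 17840000 reads per library if the values are FPKM. Summed FPKM over the listed genes was highest in HFD replicate 3, at 186492, and 76620 to 128635 in the others. The table held 12.0 to 17.6% of those reads, so it is part of the transcriptome. Contractile smooth muscle genes, the markers of the aortic wall, were present in every library: Acta2 ran from 146 to 1607 FPKM. The 11 endothelial markers listed for checking were not analysed here.

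Tnnt2 lies at chr1:135836354-135852260 on the plus strand of GRCm38. Its levels were 5.62, 3.45 and 28.7 FPKM in HSAPN libraries 1 to 3, and 25.2, 26.7 and 1.58 FPKM in HAPN libraries 1 to 3. They were 64.6 FPKM in the shared HFD library and 0.752 FPKM in HFD replicate 3, against 11.8, 63.6 and 44.0 FPKM in WT libraries 1 to 3. The shared HFD library and WT replicate 2 stood highest and HFD replicate 3 lowest, and every pair of groups overlapped. The values rest on 97 reads in HFD replicate 3 and 7931 in the shared HFD library. Means were 12.6 ± 14.0 FPKM in HSAPN (SD, n = 3), 17.8 ± 14.1 in HAPN (n = 3), 32.7 ± 45.2 in HFD (n = 2) and 39.8 ± 26.1 in WT (n = 3).

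Tnni3 lies on the minus strand at chr7:4518305-4524229. Its levels were 16.1, 7.32 and 76.0 FPKM in the HSAPN libraries and 61.2, 59.9 and 5.44 FPKM in the HAPN libraries. In HFD it stood at 179 FPKM in the shared library and 6.41 FPKM in replicate 3, against 31.5, 152 and 114 FPKM in the WT libraries. The same libraries were high as for Tnnt2, while HAPN replicate 3 was the lowest, on 175 reads, and all groups overlapped. The annotated gene shares chr7:4522933-4524229 with Dnaaf3 on the same strand, so reads of the neighbour may be counted with it. Means were 33.2 ± 37.4 FPKM in HSAPN (SD, n = 3), 42.2 ± 31.8 in HAPN (n = 3), 92.6 ± 122 in HFD (n = 2) and 98.9 ± 61.3 in WT (n = 3).

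Myl4 lies on the plus strand at chr11:104550663-104595753 and overlaps 4 noncoding models on the other strand, Gm11661, Gm11663, Gm11665 and Gm22000; the sources used here do not give the strand setting of the counting. Its levels were 7.67, 4.87 and 49.7 FPKM in the HSAPN libraries and 35.5, 42.6 and 0.770 FPKM in the HAPN libraries. They were 146 FPKM in the shared HFD library and 0.752 FPKM in HFD replicate 3, against 4.94, 94.8 and 87.9 FPKM in the WT libraries. The shared HFD library was again the highest, HFD replicate 3 the lowest, WT replicate 1 was low as well, and all groups overlapped. Means were 20.8 ± 25.1 FPKM in HSAPN (SD, n = 3), 26.3 ± 22.4 in HAPN (n = 3), 73.3 ± 103 in HFD (n = 2) and 62.5 ± 50.002 in WT (n = 3).

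**Figure D1:**
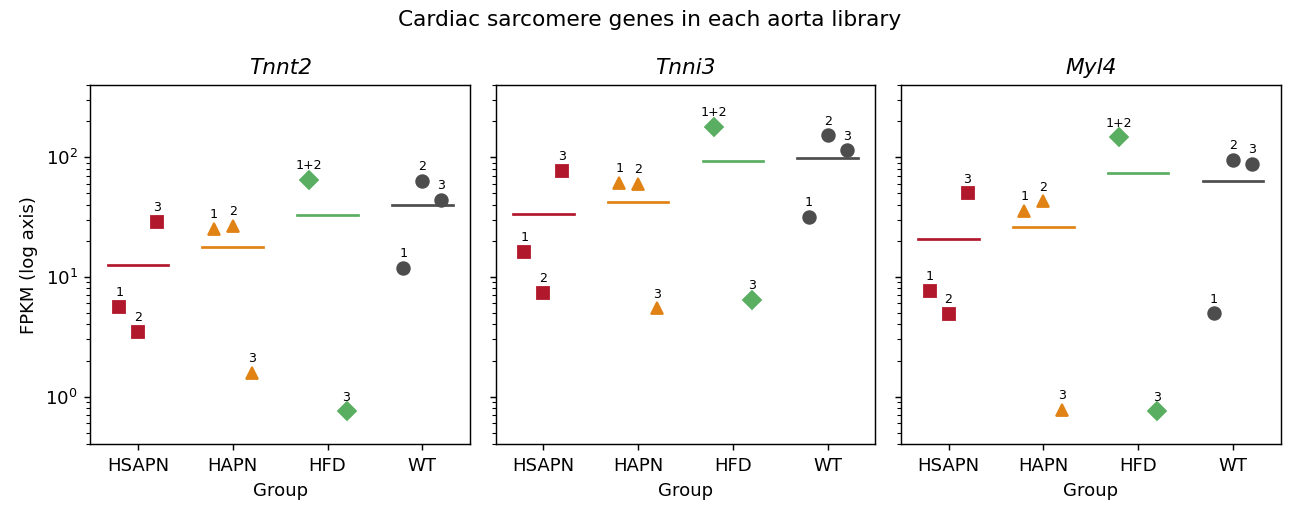
FPKM of Tnnt2, Tnni3 and Myl4 on a log axis in each of 11 libraries, by group; points carry the replicate number and lines are arithmetic group means. The HFD libraries stand farthest apart, Tnnt2 at 64.6 and 0.752 FPKM, and all groups overlap.

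Per length, Tnni3 was the highest of the 3 genes in all 11 libraries, averaging 64.3 ± 60.6 FPKM (SD, n = 11), followed by Myl4 at 43.2 ± 48.1 FPKM and Tnnt2 at 25.1 ± 23.6 FPKM. Neighbours in that order overlapped widely. The order depends on the lengths used: the exonic lengths were 7752 bases for Tnnt2, 2063 for Tnni3 and 4637 for Myl4, while the longest single transcripts measure 3330, 912 and 3273 bases.

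The spread lay within groups rather than between them. Between the shared HFD library and HFD replicate 3, Tnnt2 differed 85.9-fold (95% interval 70.4 to 106.2, covering counting error only). Myl4 differed 194-fold between the same libraries (150.1 to 255.8), and Tnni3 32.9-fold between the shared HFD library and HAPN replicate 3 (28.3 to 38.4). Within HSAPN the highest library was 8.33 times the lowest for Tnnt2, 10.4 times for Tnni3 and 10.2 times for Myl4. Within HAPN the folds were 16.9, 11.3 and 55.3, and within WT they were 5.37, 4.81 and 19.2, in the same order of genes. Each group therefore held a high and a low library for all 3 genes. In bulk samples, fewer cells of a type and less RNA per cell cannot be told apart.

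The within-group SD of log2(FPKM + 1) was 2.02 for Tnnt2, 1.92 for Tnni3 and 2.67 for Myl4. Among the 1659 genes that reached 1 FPKM in 3 or more libraries, these ranked 17, 21 and 6 from the top, and the median gene had an SD of 0.347. Group membership accounted for 17.3% of the spread of Tnnt2, 19.0% for Tnni3 and 7.59% for Myl4, against 42.7% for the median gene. These shares are not adjusted for the number of groups. Chance alone gives a positive share where groups do not differ, so they do not measure a group effect.

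**Figure D2:**
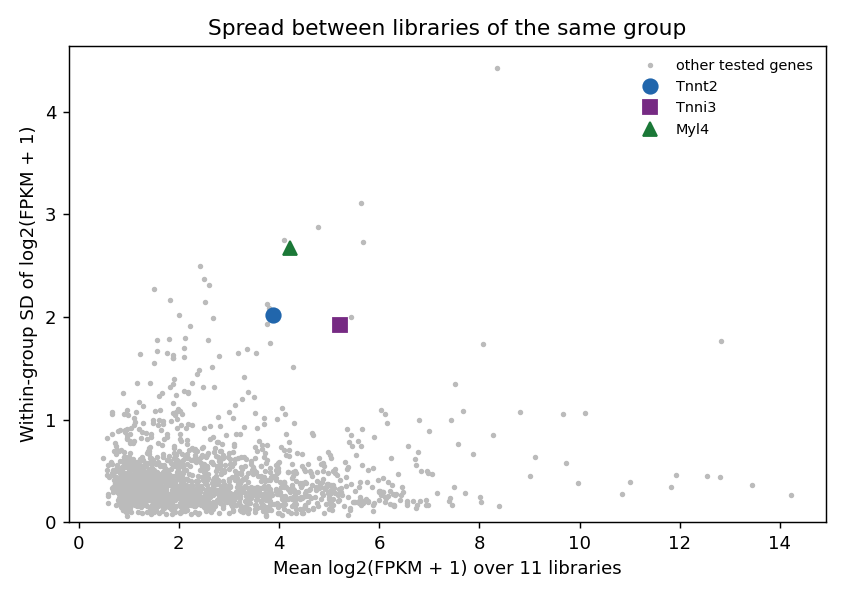
Within-group SD of log2(FPKM + 1) against mean log2(FPKM + 1) over 11 libraries for 1659 genes (grey), with Tnnt2, Tnni3 and Myl4 in colour. The 3 cardiac genes, at 2.02, 1.92 and 2.67, lie far above the median of 0.347.

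The 3 genes rose and fell together from library to library. On log2(FPKM + 1), Tnnt2 and Tnni3 had a Pearson r of 0.988 and a Spearman rho of 0.982 over 11 libraries (permutation p = 1e-05 for both, the smallest that 100000 permutations can give; adjusted p = 5e-05 over 10 relations). Tnnt2 and Myl4 had r = 0.974 and rho = 0.991 (permutation p = 2e-05 and 1e-05; adjusted 5e-05 for both). Tnni3 and Myl4 had r = 0.965 and rho = 0.973 (permutation p = 2e-05 for both; adjusted 5e-05 and 6.7e-05). Without HFD replicate 3 and HAPN replicate 3, the libraries farthest from the median, r was 0.995, 0.948 and 0.937 for these pairs. With group means removed, r was 0.994, 0.986 and 0.980, so the relation held within groups.

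The ratio of Tnni3 to Tnnt2, in FPKM, was 2.12 to 2.86 in 9 of the 11 libraries, with a median of 2.65 over all 11. It was higher in the libraries with the least of both genes, at 3.44 in HAPN replicate 3 (95% counting interval 2.79 to 4.25) and 8.52 in HFD replicate 3 (6.68 to 10.9). Whether reads of Dnaaf3 enter these ratios was not tested. The ratio of Myl4 to Tnnt2 had a median of 1.41 and reached 2.26 in the shared HFD library. It was lowest in WT replicate 1 at 0.418 (0.374 to 0.467), next in HAPN replicate 3 at 0.488 (0.357 to 0.663), then in HFD replicate 3 at 0.9996 (0.709 to 1.40). WT replicate 1 thus had a Tnni3 to Tnnt2 ratio of 2.66, close to the median, and little of the atrial light chain.

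**Figure D3:**
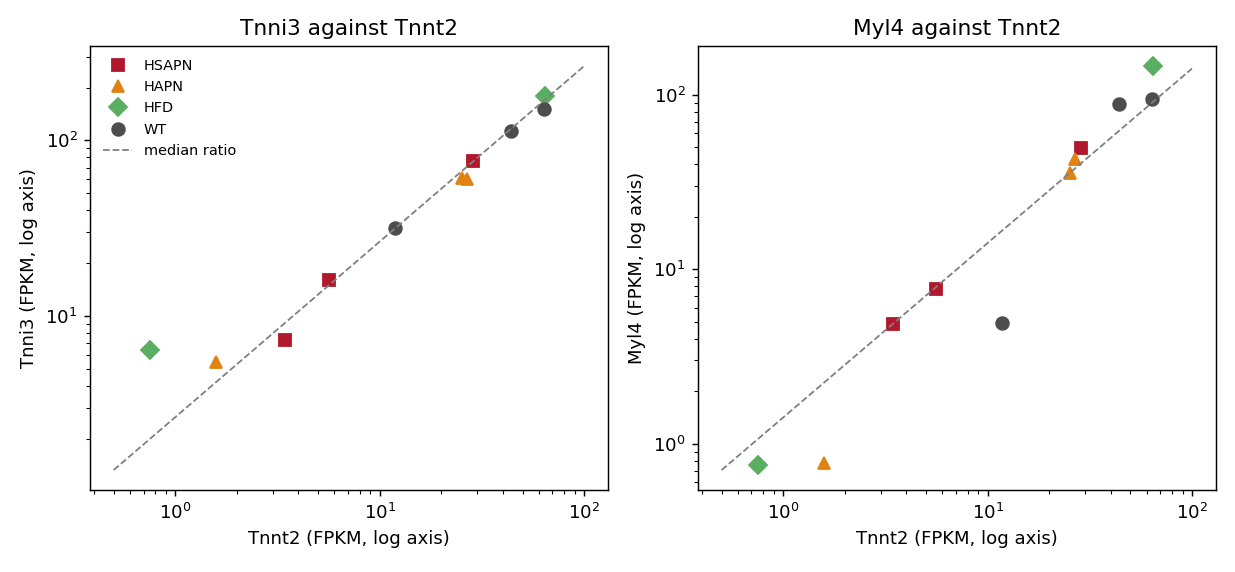
Tnni3 and Myl4 against Tnnt2 in each of 11 libraries, in FPKM on log axes, with the median ratio (2.65 and 1.41) as a dashed line. HFD replicate 3 lies above the Tnni3 line at a ratio of 8.52, and WT replicate 1 and HAPN replicate 3 lie below the Myl4 line at 0.418 and 0.488.

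Group differences were tested with limma on log2(FPKM + 1) in 1 fit over 1659 genes, called at an adjusted p of 0.05. No member was called in any comparison, by limma or by limma-voom on recovered reads, and none reached an unadjusted p of 0.05 in either. All groups shared 1 estimate of a gene's spread, so the wide gap between the HFD libraries also enters the SE of comparisons without HFD. Log2 differences are on the log2(FPKM + 1) scale, which understates the change of low values.

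High-fat feeding was set against the normal diet through HFD and WT. All 3 genes averaged lower in HFD on the log scale, with log2 differences of -1.64 for Tnnt2 (SE 1.59, limma adjusted p = 0.720), -1.18 for Tnni3 (SE 1.52, limma adjusted p = 0.809) and -1.21 for Myl4 (SE 2.10, limma adjusted p = 0.871). The 95% interval for Tnnt2 ran from -5.21 to 1.93. Limma called 0% of all genes in this comparison (189 stood under 0.05 before adjustment), and limma-voom called none; without WT replicate 3 limma called 27 genes. The groups did not overlap in 0 of the 3 members, against 19.3% of all genes. One library decided the direction: without HFD replicate 3 the differences were 0.97, 1.12 and 1.99, and without the shared HFD library they were -4.25, -3.48 and -4.40.

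HAPN and HFD share genotype and diet in the labels. The log2 differences were 0.20 for Tnnt2 (SE 1.59, limma adjusted p = 0.955), -0.33 for Tnni3 (0.911) and -0.18 for Myl4 (0.969). Limma called 0.181% of all genes and none of the members, and groups without overlap made up 26.3% of all genes and 0 of the 3 members. Without HFD replicate 3 the Tnnt2 difference was -2.41, and without HAPN replicates 1 or 2 it was -0.34 and -0.38. Without the shared HFD library the Tnni3 and Myl4 differences were 1.97 and 3.01, and without HAPN replicate 3 they were 0.75 and 1.31. The sign for Myl4 also turned under median-ratio scaling (0.11).

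HSAPN against HAPN sets the APPL1 knockdown beside the WT genotype on the same diet, as far as the labels go. The log2 differences were -0.36 for Tnnt2 (SE 1.42, 95% interval -3.56 to 2.83), -0.38 for Tnni3 and -0.04 for Myl4, each with a limma adjusted p of 0.999. Limma called 0.121% of all genes and none of the members. The groups overlapped in all 3 members and were apart in 17.5% of all genes. Each direction rested on single libraries: without HAPN replicate 1 the differences were 0.18, 0.17 and 0.64, without HAPN replicate 2 they were 0.22, 0.15 and 0.77, and without HSAPN replicate 2 they were 0.19, 0.32 and 0.57. Without HSAPN replicate 1, Myl4 alone turned, to 0.29. The intervals leave room for several-fold differences in either direction.

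HSAPN against HFD gave log2 differences of -0.16 for Tnnt2 (limma adjusted p = 0.976), -0.72 for Tnni3 (0.932) and -0.23 for Myl4 (0.976). Limma called 0% of all genes, with 67 under 0.05 before adjustment, and limma-voom called none. Groups were apart in 19.8% of all genes and in none of the 3 members. Without the shared HFD library the differences were 2.45, 1.58 and 2.97. Without HSAPN replicate 1, Tnnt2 and Myl4 stood at 0.10 and 0.11, and without HSAPN replicate 2 at 0.39 and 0.39. Under median-ratio scaling these were 0.09 and 0.04.

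Against WT, with which these comparisons share all 3 control libraries, HAPN and HSAPN averaged lower in all 3 genes. HAPN against WT gave -1.44 for Tnnt2 (SE 1.42, limma adjusted p = 0.518), -1.51 for Tnni3 (0.478) and -1.39 for Myl4 (0.628). Limma called 0% of all genes there, with 368 under 0.05 before adjustment, limma-voom called none, and groups were apart in 27.5% of all genes and no member. Without HAPN replicate 3 the Myl4 difference was 0.11. HSAPN against WT gave -1.80 for Tnnt2 (SE 1.42, limma adjusted p = 0.434), -1.90 for Tnni3 (0.392) and -1.43 for Myl4 (0.630). With these groups fitted alone, the limma adjusted p was 0.242 for Tnnt2 and 0.246 for Tnni3, the lowest of any alternative there. Limma and limma-voom again called 0% of all genes, with 360 at an unadjusted limma p under 0.05, and groups were apart in 29.4% of all genes and no member. Without WT replicate 3, limma called 177 genes in HAPN against WT and 164 in HSAPN against WT, none of them a member.

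Taking the 8 high-fat libraries against the 3 WT libraries, the mean of the 3 high-fat group means differed from WT by -1.63 for Tnnt2 (SE 1.19, 95% interval -4.29 to 1.03, limma adjusted p = 0.385). The values were -1.53 for Tnni3 (SE 1.13, limma adjusted p = 0.393) and -1.34 for Myl4 (SE 1.57, limma adjusted p = 0.581). The median over all genes was -0.06. Limma called 0.0603% of all genes, and groups were apart in 4.04% of all genes, with no member among either. Without WT replicate 3 limma called 240 genes, again no member. A two-sided exact permutation test took the plain mean of the 8 high-fat libraries minus the WT mean, a slightly different quantity. These differences were -1.626 for Tnnt2, -1.575 for Tnni3 and -1.359 for Myl4. Over all 165 arrangements of the libraries the permutation test gave p = 0.230 for Tnnt2 and Tnni3 and p = 0.364 for Myl4. The smallest possible p is 0.00606. With 3 libraries against 3 or 2, such a test cannot go below 0.1. The direction held without any single library, with Tnnt2 at -0.76 without HFD replicate 3 and -2.50 without the shared HFD library. An F test over the 4 groups in limma gave adjusted p-values of 0.716, 0.685 and 0.889, and called 0.121% of all genes.

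**Figure D4:**
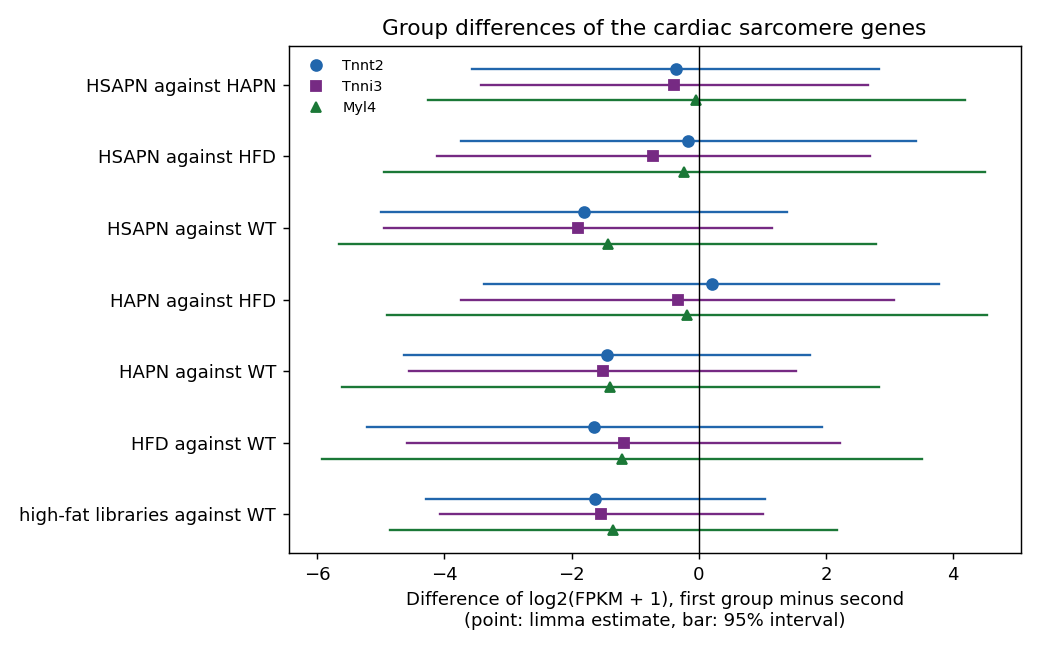
Differences of log2(FPKM + 1), first group minus second, for Tnnt2, Tnni3 and Myl4 in 7 comparisons; points are limma estimates and bars 95% intervals. Every interval spans 0, for example -4.29 to 1.03 for Tnnt2 in the high-fat libraries against WT.

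Lists of 121 other genes drawn up for heart muscle were read, of which 28 were analysed, 19 tested and 18 averaged at least 1 FPKM. These genes are not confined to heart muscle. Des is also on the smooth muscle list, Slc2a4 is also of fat, and Casq1 is of skeletal muscle. Limma called none of the 19 in any of the 7 comparisons between groups. At an unadjusted limma p under 0.05 stood 3 of them in HAPN against WT, 3 in HSAPN against WT, 3 in the high-fat libraries against WT, and 0 in the other 4 comparisons. Of all 1659 genes, 22.2%, 21.7% and 23.6% (392 genes) stood under 0.05 in those 3 comparisons, so 3 of 19 is no larger a share. In the high-fat libraries against WT, 3 stood higher and 16 lower, while 55.4% of all genes were lower. Their median log2 difference was -0.50, beside -0.06 over all genes. Of the 18, 9 were highest in the shared HFD library and 6 in WT replicate 2, and 6 were lowest in HFD replicate 3. The shares of all genes with these extremes were not counted, so the counts are not read as particular to heart muscle. Summed fat cell and nerve markers also peaked in the shared HFD library, and smooth muscle and airway markers in WT replicate 2.

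Among genes of muscle metabolism, Cox6a2, a heart and skeletal muscle subunit of cytochrome c oxidase, was at 17.2, 18.3 and 99.4 FPKM in HSAPN and 67.0, 80.4 and 14.0 FPKM in HAPN. It stood at 239 and 7.25 FPKM in the HFD libraries, against 9.66, 119 and 140 FPKM in WT, close to the order of Tnnt2 (rho = 0.927) but with WT replicate 1 among the lowest. Cox7a1 and Cox8b, muscle subunits of the same enzyme, ranged from 1.67 to 45.1 FPKM and from 0.885 to 105 FPKM, both highest in the shared HFD library and lowest in HAPN replicate 3. Pgam2, the muscle phosphoglycerate mutase, ranged from 1.65 to 55.2 FPKM, and Slc2a4, the insulin-regulated glucose transporter of muscle and fat, from 0.484 to 17.2 FPKM. Across 11 libraries r to Tnnt2 was 0.970 for Pgam2, 0.955 for Slc2a4, 0.932 for Cox7a1, 0.914 for Cox6a2 and 0.911 for Cox8b. Corin, the protease that processes atrial natriuretic peptide, ranged from 0.264 to 7.18 FPKM (r = 0.881). The libraries rich in troponin were thus also rich in these transcripts. The mean of the fat cell markers followed Tnnt2 too (rho = 0.936). Which tissue these transcripts came from was not tested.

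Among sarcomere and calcium genes, Mylk3, the cardiac myosin light chain kinase, ranged from 0.347 to 11.3 FPKM, highest in the shared HFD library (r to Tnnt2 0.858). Jph2, which holds the junction between surface membrane and calcium store, ranged from 3.50 to 33.5 FPKM (r = 0.879), and Des, the muscle intermediate filament also made by smooth muscle, from 31.4 to 453 FPKM (r = 0.778). Both peaked in WT replicate 2, where Acta2 peaked as well. S100a1, a calcium-binding protein of striated muscle, varied less, from 114 to 325 FPKM (r = 0.486), and Casq1, the calcium-store protein calsequestrin of skeletal muscle, was at 0.493 to 5.70 FPKM (r = 0.559).

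Of the channel and junction genes, Kcnj5, a subunit of the atrial acetylcholine-gated potassium channel, ranged from 0.0136 to 4.15 FPKM (r to Tnnt2 0.906), and Bves, a membrane protein of striated muscle, from 0.235 to 3.48 FPKM (r = 0.889). Kcnk3, a background potassium channel, stayed between 5.09 and 13.6 FPKM (r = 0.601). Among transcription factors, Gata4, a factor of heart development, reached 3.40 FPKM in the shared HFD library (r = 0.521). Mef2c, Hey2 and Prrx1 stayed within 1.53 to 3.14, 0.819 to 1.51 and 1.12 to 2.49 FPKM, with r of 0.246, 0.0932 and 0.526. Of the factors that averaged under 1 FPKM, Hand2 and Shox2 had r of 0.750 and 0.765, Isl1 0.615 and Tbx18 0.291. Hand1 was 0 in every library. The other listed genes under 1 FPKM were Kcna5 (r = 0.734), Cdh2 (0.712), Hcn4 (0.676), Kcnip2 (0.590) and Tnni1 (0.348). These correlations are descriptions over libraries that share their preparation, and no p is attached.

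Among 1658 other tested genes ranked by r to Tnnt2 over 11 libraries, Tnni3 was the closest and Myl4 the third. The median r was 0.217, and 27 genes had r over 0.9 and 0 had r under -0.9. The 8 closest besides the members were Bpifa1 (0.979), Pgam2 (0.970), Slc2a4 (0.955), Gm44386 (0.947), Tmc5 (0.944), C530043A13Rik (0.943), Oit1 (0.940) and Adh7 (0.936). Bpifa1, a secreted protein of the airway lining, ran from 2.81 to 10735 FPKM. Adh7, an alcohol dehydrogenase of epithelia, ran from 2.49 to 47.2 FPKM. The list depended on the libraries: without WT replicate 1, 4 of the 8 remained, and without any other single library 6 or 7 did.

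Markers of airway, fat, smooth muscle, and nerve and glia moved with the cardiac genes. The mean of the 3 skeletal muscle markers analysed did so too, with r to Tnnt2 of 0.891 for Klhl41, 0.561 for Acta1 and 0.349 for Myh1. Markers of fibroblasts and erythrocytes did not follow Tnnt2 past the threshold. The part of these tissues in the differences was not tested. Bpifa1, the 1 airway marker analysed of 15, was at 27.9, 35.2 and 1149 FPKM in HSAPN, 840, 3848 and 2.81 FPKM in HAPN, 6438 and 5.84 FPKM in HFD, and 238, 10735 and 2771 FPKM in WT. Its r to Tnnt2 over 11 libraries was 0.979 (rho 0.945; permutation p = 1e-05 and 3e-05, adjusted 5e-05 and 7.5e-05), and 0.970 without the libraries farthest from the median Tnnt2. All 15 fat cell markers were analysed. Their summed level ran from 56.6 to 161 FPKM in HSAPN, 37.5 to 363 in HAPN, 38.0 to 1875 in HFD and 136 to 1195 in WT. The list mean had r = 0.839 to Tnnt2 (rho 0.936; permutation p = 0.0011 and 5e-05, adjusted 0.0019 and 0.0001), and r = 0.783 without the 2 farthest libraries.

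Smooth muscle genes, 13 of 18 analysed, summed to 486 to 785 FPKM in HSAPN, 468 to 847 in HAPN, 414 to 1302 in HFD and 1106 to 4193 in WT (r to Tnnt2 0.773, rho 0.9; permutation p = 0.0022 and 0.00036, adjusted 0.0032 and 0.00051; r 0.698 without the 2 farthest). Nerve and glia genes, 7 of 10, summed to 3.38 to 7.72 FPKM in HSAPN, 2.69 to 11.1 in HAPN, 3.59 to 34.3 in HFD and 11.3 to 31.97 in WT (r = 0.853, rho 0.927; permutation p = 0.0011 and 0.00012, adjusted 0.0019 and 0.0002; r 0.862 without the 2 farthest). Both lists thus followed Tnnt2 across libraries. Fibroblast genes, 7 of 12, summed to 135 to 153 FPKM in HSAPN, 127 to 146 in HAPN, 148 to 262 in HFD and 199 to 217 in WT, and had r = 0.547 (rho 0.373; permutation p = 0.085 and 0.26, adjusted 0.094 and 0.29; r 0.525 without the 2 farthest). Erythrocyte genes, 8 of 10, summed to 3183 to 4901 FPKM in HSAPN, 1313 to 3919 in HAPN, 2207 to 3860 in HFD and 413 to 3216 in WT, and had r = -0.07 (rho 0.218; permutation p = 0.83 and 0.52, adjusted 0.83 and 0.52; r -0.14 without the 2 farthest). Neither of these lists followed Tnnt2 past the threshold.

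Skeletal muscle is the other tissue rich in striated muscle genes. Of its 26 listed markers, 3 were analysed, Klhl41, Acta1 and Myh1. Their sum ran from 0.653 to 2.68 FPKM in HSAPN, 0.222 to 2.72 in HAPN, 0.452 to 11.02 in HFD and 0.760 to 4.14 in WT. Klhl41 ranged from 0.202 FPKM in HAPN replicate 3 to 4.997 FPKM in the shared HFD library (r to Tnnt2 0.891). Myh1, the fast myosin heavy chain, was at most 0.455 FPKM (r = 0.349). Myh1 was listed at 0 in HAPN replicate 2, WT replicate 1 and WT replicate 2. Acta1, skeletal actin, was 5.57 FPKM in the shared HFD library (r = 0.561). Acta1 was at most 0.863 FPKM in every other library, and 0 in HAPN replicate 3. The mean of the 3 markers had r = 0.751 to Tnnt2 (rho 0.882; permutation p = 0.0028 and 0.00068, adjusted 0.0035 and 0.00085), and r = 0.701 without the 2 farthest libraries.

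**Figure D5:**
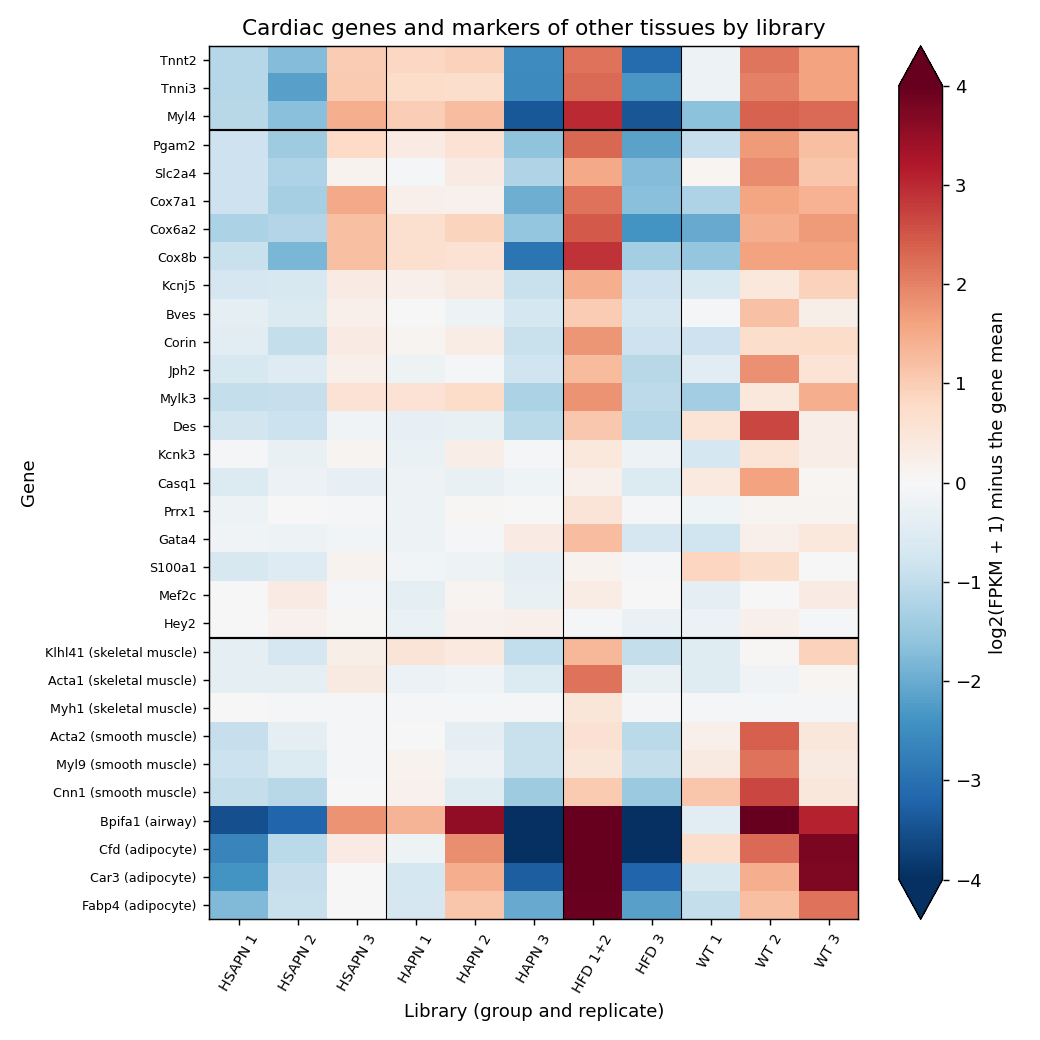
Colour gives log2(FPKM + 1) minus the gene's mean over 11 libraries, saturating at 4 and -4. Rows are the 3 sarcomere genes (top), 18 other cardiac genes (middle) and markers of skeletal muscle, smooth muscle, airway and fat (bottom). Markers of nerve and glia, fibroblasts and erythrocytes are not drawn. In Tnnt2, Pgam2, Bpifa1 and Cfd the shared HFD library and WT replicates 2 and 3 lie above the gene's mean, and HFD replicate 3 and HAPN replicate 3 below it.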

How the data were processed

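RNA of mouse aorta was sequenced from 12 samples, with TRIzol extraction and a directional NEB library kit, per the labels' protocols. The authors deposited 1 FPKM value per gene symbol and sample. Tools in the submitters' processing notes are DESeq 1.8.3 and featureCounts 1.5.0-p3, and the build there is GRCm38, without roles. The sources used here do not give the aligner, annotation release, strand setting or the rule that chose the listed genes. Multiplied by GENCODE M21 exonic lengths, 96.1 to 97.3% of low values (up to 20 reads) came within 0.1 of whole reads. Values scaled as TPM would pass this check too, with other read totals.

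Identical files entered once. A symbol listed more than once (Dlg2) was left out, and 4 symbols turned into dates were tested but not used as names. The 1659 genes that reached 1 FPKM in 3 or more libraries entered limma-trend on log2(FPKM + 1), pseudocount 1, in limma 3.58.1 under R 4.3.3, with 4 group means and Benjamini-Hochberg adjustment over all tested genes. The fit was also run on simulated data with independent, normally distributed values and SDs shuffled between genes. That run cannot tell how the fit performs where genes rise and fall together. Tables, permutation tests and figures used Python 3.11.15, pandas 2.3.3, NumPy 2.4.6, SciPy 1.17.1 and matplotlib 3.10.9. Intervals on folds, ratios and read numbers cover counting error only. Alternatives were a pseudocount of 0.1, no filter, a filter of 6 libraries, each library left out, a replicate block, pairs of groups alone, median-ratio scaling, identical files as 2 libraries, and limma-voom on recovered reads.

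The genes, lists and tests were chosen with earlier results of these data known. Named were the listed members, other cardiac genes averaging at least 1 FPKM, the 8 genes closest to Tnnt2, and marker genes of other tissues. Cardiac genes under 1 FPKM were named with fewer values. Acta2, Cfd and the marker genes named singly are examples from those lists.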

Additional observations from a re-analysis of the deposited data

Results flagged for a closer look

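Among the 8 high-fat libraries, the shared HFD library stood apart from the rest in all 3 sarcomere genes on the FPKM scale. Tnnt2 was 64.6 FPKM there and 28.7 FPKM in the next library, HSAPN replicate 3. Tnni3 was 179 FPKM, with 76.0 FPKM next, and Myl4 was 146 FPKM, with 49.7 FPKM next. The gap to the next library took up 0.562, 0.593 and 0.663 of the whole range of the 8 libraries, where Dixon's critical value is 0.526. On the log2(FPKM + 1) scale none of the 3 passed that value. Chance alone gives such a gap in about 1 in 20 groups only where values are normally distributed. These FPKM values were skewed, with Myl4 at a mean of 36.0 and a median of 21.6 FPKM over the 8 libraries. That rate therefore does not carry over to them, and how often chance gives such a gap here was not tested. The 3 genes are also not independent of each other. Groups of 3 or fewer libraries were not tested in this way.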

How the results depend on the processing

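No sarcomere gene passed the threshold under any alternative. Of 417 differences recomputed, 186 were the same value, since the setting left their groups' means as they were; of the other 231, 190 kept their sign and 41 turned. Counts over all genes moved more. With no filter they were 2 (0 as reported) for HFD against WT, 5 (3) for HAPN against HFD, 1 (2) for HSAPN against HAPN, 2 (0) for HSAPN against HFD, 1 (0) for HAPN against WT, 3 (1) for the high-fat libraries against WT and 4 (2) for the F test. With the filter at 6 libraries, HAPN against HFD, the high-fat libraries and the F test gave 0. With a pseudocount of 0.1 the high-fat libraries gave 0. Median-ratio scaling gave 5 for HAPN against HFD, 17 for HAPN against WT, 0 for the high-fat libraries and 4 for the F test. It shifted the median of all genes by 0.17 in HAPN against WT, 0.23 in HAPN against HFD, 0.13 in HSAPN against WT and 0.19 in HSAPN against HFD, and gave folds between libraries of 64.0 for Tnnt2, 21.5 for Tnni3 and 127 for Myl4. Identical files counted as 2 libraries gave 6, 10, 2, 16, 8 and 8 genes for HFD against WT, HAPN against HFD, HSAPN against HFD, HAPN against WT, the high-fat libraries and the F test. Limma-voom gave 0 for HAPN against HFD, 1 for HSAPN against HAPN and 0 for the F test. Pairs of groups alone gave 0 for HAPN against HFD and HSAPN against HAPN.

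Replicate numbers were not taken as pairs in the main fit. Deviations of same-numbered libraries had r from -0.53 to 0.33, over 0.1 in 3 of 9 pairs. Differently numbered libraries were not correlated for reference, so these values do not decide whether the numbers pair. With the replicate block, the identical files taken as number 1, HAPN against HFD gave 0 genes, HAPN against WT 1 and the F test 1. With number 2, HFD against WT, HSAPN against HFD and HAPN against WT gave 1 each and the high-fat libraries 0. Tnnt2 in HFD against WT was -1.47 or -1.78 under the block.

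With all libraries kept, the sign turned in these differences. In HAPN against HFD, Tnnt2 was -0.67 with identical files as 2, and Myl4 0.14 with the block, 0.11 with median-ratio scaling and 0.042 with voom. In HSAPN against HAPN, Myl4 was 0.18 with a pseudocount of 0.1 and 0.20 with voom. In HSAPN against HFD, Tnnt2 was 0.17 with a pseudocount of 0.1, 0.092 with scaling and 0.25 with voom, and Myl4 was 0.16 with that pseudocount, 0.10 with the block, 0.036 with scaling and 0.24 with voom. The cause was not tested.

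Leaving out each library in turn, Tnnt2, Tnni3 and Myl4 ran from -4.25 to 0.97, -3.48 to 1.12 and -4.40 to 1.99 in HFD against WT; -2.41 to 2.81, -2.63 to 1.97 and -3.38 to 3.01 in HAPN against HFD; -1.49 to 0.22, -1.47 to 0.32 and -1.54 to 0.77 in HSAPN against HAPN. They ran from -2.78 to 2.45, -3.02 to 1.58 and -3.42 to 2.97 in HSAPN against HFD, and Myl4 from -2.71 to 0.11 in HAPN against WT. Counts of genes ran 0 to 27 for HFD against WT, 0 to 6 for HAPN against HFD, 0 to 3 for HSAPN against HAPN, 0 to 3 for HSAPN against HFD, 0 to 177 for HAPN against WT, 0 to 164 for HSAPN against WT, 0 to 240 for the high-fat libraries and 0 to 53 for the F test. The highest counts in the comparisons with WT came without WT replicate 3. Folds between libraries ran from 40.9 to 85.9 for Tnnt2, 27.9 to 32.9 for Tnni3 and 126 to 194 for Myl4, and 4 to 7 of the 8 genes closest to Tnnt2 were kept. A library left alone in its group was assumed to vary like the others. With 58 reads of Myl4 and 97 of Tnnt2 in HFD replicate 3, counting error is small beside the spread between libraries.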

Other observations

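Low-level genes of the heart's inflow and of nerve were read as values, chosen after their levels were seen. Shox2, a factor of the sinus node, was at 1.196 FPKM in the shared HFD library and at most 0.388 FPKM in any other, in WT replicate 2. Isl1, a factor of cardiac progenitors and of neurons, was at 0.953 FPKM there and 0.466 FPKM in WT replicate 2. Hand2, a factor of heart and sympathetic neurons, was at 2.14 FPKM in the shared HFD library and 0.0256 FPKM in HFD replicate 3. Th, the first enzyme of catecholamine synthesis, was at 1.25 FPKM in the shared HFD library and at most 0.0746 FPKM elsewhere. Dbh, which makes noradrenaline, was at 1.12 FPKM in the shared HFD library and 0.831 FPKM in WT replicate 2. Other genes of these kinds were highest elsewhere: Hcn4, the pacemaker channel of the sinus node, was at 0.658 FPKM in the shared HFD library and 1.01 FPKM in WT replicate 2, and the glial gene S100b at 5.47 and 9.53 FPKM.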
